A study of Mus musculus with 6 samples.

Results

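The 36 genes described here encode enzymes and regulators of sterol and fatty acid synthesis, and were taken by symbol from the 55401 Ensembl genes of a count table of mouse embryonic stem (ES) cells. They fall into a sterol branch of 19 genes, a fatty acid branch of 12 genes and 5 regulators of the SREBP transcription factors; the list is not the whole pathway. The series asks what happens to messenger RNA when ES cells lose TAF13, a subunit of the general transcription factor TFIID. One group of 3 libraries came from untreated cells labelled as expressing 3XHA-Taf13, an HA-tagged form of the protein, and the other group of 3 from cells labelled KO and given doxycycline. Culture with or without the drug lasted 7 days, and each library was made from its own Petri dish. The cells are labelled only as ES cells, and the sources used here do not name the clone, the promoter that drives the tagged gene or the state of the chromosomal Taf13 gene. The KO label and doxycycline always go together, so an effect of the drug and one of TAF13 loss cannot be told apart.

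Cholesterol is built from acetyl-CoA through mevalonate, farnesyl diphosphate, squalene and lanosterol. Fatty acids are built from the same acetyl-CoA by acetyl-CoA carboxylase and fatty acid synthase, and are then elongated and desaturated. Both routes are controlled by the SREBP transcription factors, which wait in the endoplasmic reticulum membrane with the escort protein SCAP and are held there by the INSIG proteins while sterols are plentiful. SREBP2 is best known for sterol genes and SREBP1 for fatty acid genes.

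Library depth and identity bear on all values given here. Total counts ran from 31219328 to 50328010 per library, and a count of 3 corresponds to 0.0581 to 0.0961 CPM (counts relative to the library total), a limit of counting alone. Expressing replicate 1 stood apart: its counts differed from those of expressing replicates 2 and 3 by a chi-square per degree of freedom of 33.9 and 27.5, against 3.6 for replicates 2 and 3 and 3.27 to 5.67 for pairs labelled KO. Taf13 itself had 244, 445 and 447 counts in expressing replicates 1 to 3 and 422, 634 and 699 in the libraries labelled KO (log2 fold change 0.40, SE 0.147, adjusted p = 0.0578, edgeR), and the counts do not separate tagged from chromosomal transcripts, so the directions here rest on the labels. Of 12 pluripotency genes, which mark ES cells, 12 fell (summed level 2954 to 3223 CPM against 1761 to 1805 CPM), and of 12 markers of primitive endoderm, an extraembryonic lineage, 12 rose (387 to 467 CPM against 1068 to 1091 CPM). Markers of fibroblasts, which serve as feeder cells in ES culture, numbered 5 higher and 1 lower of 12 (165 to 198 CPM against 182, 318 and 176 CPM, so that KO replicate 2 alone lay above the expressing range), trophectoderm markers 2 higher and 4 lower of 6 tested out of 7, and neural markers 1 and 3 of 5. Over all tested genes, 19.2% rose and 20.8% fell (adjusted p under 0.05, edgeR). No listed marker was at 0 in all libraries, and Elf5 was at 0 in 1 library. Their part in the changes of the lipid genes was not tested. In such bulk samples, fewer cells with high levels and less RNA in each cell cannot be told apart.

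Both branches were lower in the libraries labelled KO. Of the 19 sterol genes, 11 fell and 0 rose, and of the 12 fatty acid genes, 8 fell and 1 rose (edgeR's quasi-likelihood test, Benjamini-Hochberg adjusted p under 0.05 over all tested genes). Among all 17778 tested genes 20.8% fell and 19.2% rose. The members were chosen with earlier results of these data known, so these counts describe the branches and do not test them against all genes. No sterol gene was higher at an unadjusted p under 0.05 (0 of 19) or by DESeq2 (0). The median log2 fold change (libraries labelled KO minus expressing libraries) was -0.33 in the sterol branch and -0.23 in the fatty acid branch, against -0.01 over all tested genes. All 3 libraries labelled KO lay below all 3 expressing libraries for 13 sterol and 9 fatty acid genes, an arrangement found in 27.1% of tested genes. The changes were mostly small: 95% intervals of 33 of the 36 genes stayed within a 2-fold change in either direction, the exceptions being Scd1, Acss2 and Fdps. Such intervals were found for 73.1% of all tested genes. All 36 genes passed the filter on low counts. The sterol decreases numbered 7 without any one library labelled KO and 8 without expressing replicate 3, and the fatty acid decreases 5 without any one of these 4 libraries. Scaling by library totals alone also gave 7 and 5. The share of all tested genes called lower was then 14.5% to 15.1%.

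**Figure D1:**
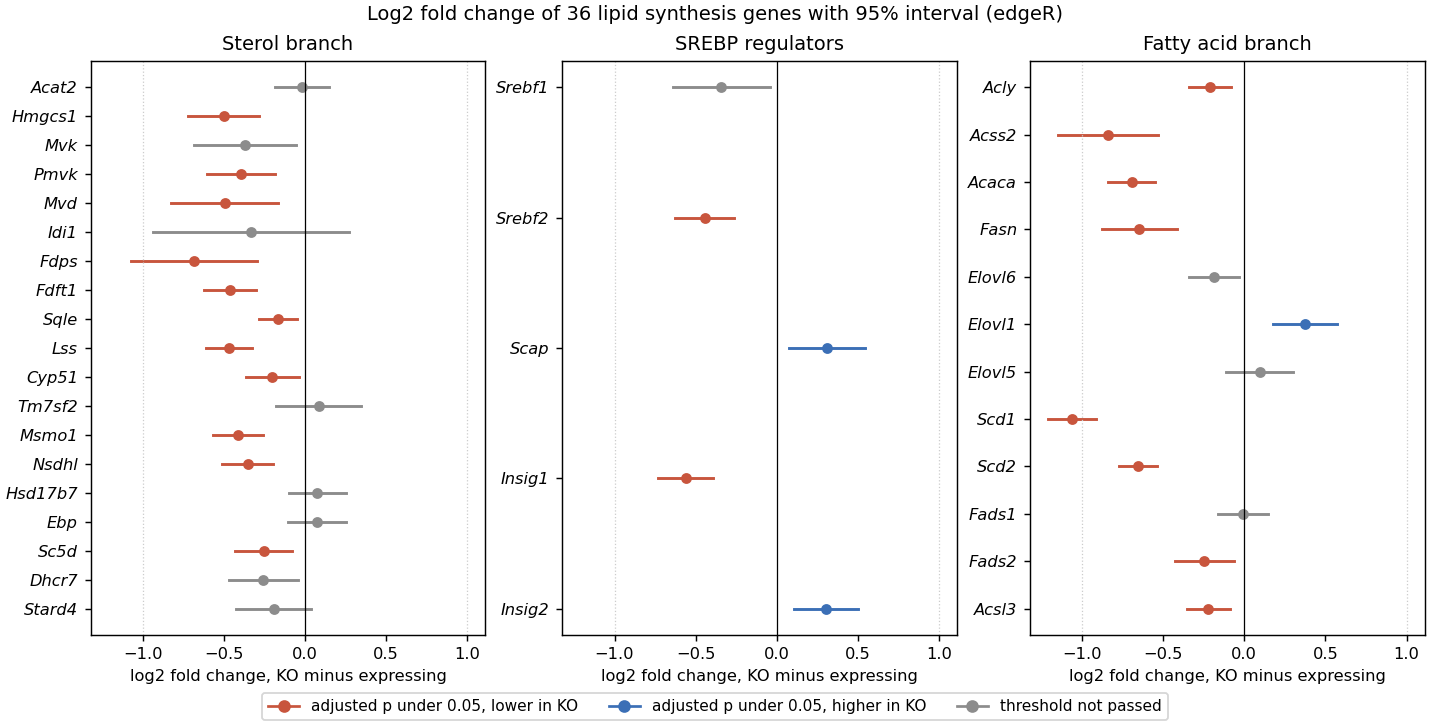
Log2 fold change of each of the 36 genes (x axis, KO minus expressing, 3 libraries a group) with its 95% interval, in pathway order from top to bottom within each branch. Coloured points passed an adjusted p of 0.05 and grey points did not; dotted lines mark a 2-fold change. Of 24 coloured genes, 21 lie left of 0 and 3 (Scap, Insig2 and Elovl1) lie right of it.

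Summed over the fatty acid branch, levels were 2412 ± 95 CPM (SD, n = 3) in the expressing libraries and 1827 ± 26.6 CPM in those labelled KO. Of this difference Fasn, a long transcript, held 38.8% and Scd2 32.5%. Summed per kilobase of merged exon, Scd2 held 41.5% and Fasn 24.7%. Fasn was at 740.4 CPM in expressing replicate 1 and at 540.2 and 604 CPM in replicates 2 and 3. Its share, and its order with Scd2 in CPM, therefore depend on that library. The sterol branch summed to 1119 ± 44.7 CPM and 899.5 ± 13.6 CPM, and Hmgcs1 held 38.8% of the difference (38.2% per kilobase). CPM are read counts relative to the library total after the libraries were scaled to each other; they carry gene length, so levels of different genes are compared below only per kilobase of merged exon (RPKM).

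Promoter windows are shown first for 4 genes as examples, none of which rose. Hmgcs1 and Nsdhl of the sterol branch and Fasn of the fatty acid branch fell, and Hsd17b7, a sterol gene, did not pass the test. Each window runs from 250 bases before to 50 bases after a RefSeq start site (GRCm38.p6), 5′ to 3′ on the gene's strand. Capitals mark the letters CCAAT or their reverse complement, the motif bound by the factor NF-Y, and in Hmgcs1 also TCACNCCAC, which resembles the sterol regulatory element bound by SREBP. The windows are chr13:119690101-119690400 on the plus strand for Hmgcs1, chrX:72918271-72918570 on the plus strand for Nsdhl, chr11:120824498-120824797 on the minus strand for Fasn and chr1:169969156-169969455 on the minus strand for Hsd17b7.
Hmgcs1: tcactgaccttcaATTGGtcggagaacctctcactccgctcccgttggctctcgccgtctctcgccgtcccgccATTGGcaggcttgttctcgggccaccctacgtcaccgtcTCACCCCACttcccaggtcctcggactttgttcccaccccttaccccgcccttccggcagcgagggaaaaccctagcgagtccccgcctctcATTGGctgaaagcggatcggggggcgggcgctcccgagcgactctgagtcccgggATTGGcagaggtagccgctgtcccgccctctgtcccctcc
Nsdhl: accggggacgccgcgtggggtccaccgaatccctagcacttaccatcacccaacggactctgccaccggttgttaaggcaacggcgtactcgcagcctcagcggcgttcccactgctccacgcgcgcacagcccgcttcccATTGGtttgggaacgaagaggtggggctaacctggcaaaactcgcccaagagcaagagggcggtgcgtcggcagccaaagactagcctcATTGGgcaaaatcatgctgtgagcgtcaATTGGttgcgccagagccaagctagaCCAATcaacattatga
Fasn: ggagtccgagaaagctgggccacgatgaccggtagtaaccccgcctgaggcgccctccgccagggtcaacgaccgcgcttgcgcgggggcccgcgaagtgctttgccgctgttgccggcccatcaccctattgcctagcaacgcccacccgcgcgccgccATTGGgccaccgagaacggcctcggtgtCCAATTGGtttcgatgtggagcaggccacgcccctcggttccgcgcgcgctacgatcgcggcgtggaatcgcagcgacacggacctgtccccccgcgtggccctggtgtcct
Hsd17b7: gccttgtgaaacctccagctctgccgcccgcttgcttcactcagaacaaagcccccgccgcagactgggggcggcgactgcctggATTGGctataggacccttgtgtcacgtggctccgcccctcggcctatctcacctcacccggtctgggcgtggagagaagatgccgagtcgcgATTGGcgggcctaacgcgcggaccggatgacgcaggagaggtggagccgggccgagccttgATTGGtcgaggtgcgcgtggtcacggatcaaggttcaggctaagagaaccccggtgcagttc
Hmgcs1 and Nsdhl each held 4 CCAAT matches on either strand, and Fasn and Hsd17b7 each held 3. The windows of Acaca and Fads2, which also fell and are not printed, held 0. In Fasn a pair of them, on opposite strands, overlapped in the palindrome CCAATTGG.

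The RefSeq table held windows for 29 of the 36 genes (38 windows, since some genes have several starts). It held none for Scd1, Scd2, Fads1, Fdft1, Fdps, Sqle and Stard4. The counts below therefore leave out several genes that fell, Scd1 and Scd2 among them. CCAAT, searched on both strands, occurred in 14 of the 15 matched sterol genes (14 of 18 windows), in 6 of 9 fatty acid genes (6 of 10 windows) and in 4 of 5 regulators (5 of 10 windows), against 37.4% of all 32851 windows. By outcome it occurred in 14 of 16 matched genes that fell, 2 of 3 that rose and 8 of 10 that did not pass. The letters were thus found among members of every outcome. TCACNCCA, the shortest form of the sterol element searched, occurred in Hmgcs1, Msmo1 and Srebf2 (3 of 38 windows), against 4.36% of all windows. These are 3 of the 16 matched genes that fell. TCACNCCA occurred in 0 of 3 that rose and 0 of 10 that did not pass. Since 1 promoter motif was loosened after values were seen, these counts test no link with outcome. The longer form TCACNCCAC, which contains TCACNCCA, occurred among members in Hmgcs1 alone (1 of 38 windows) and in 1.24% of all windows. The fixed SRE-1 form, which contains both, occurred in 0 members and 0.091% of all windows. In Hmgcs1 the match began 137 bases before the start site. The E-box CACGTG was found in 7 of 38 member windows, against 7.15% of all windows. These belong to 6 of the 29 matched genes (Dhcr7, Elovl5, Hsd17b7, Insig1, Sc5d and Scap). These are matches of letters in a short window and no record of binding.

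The fatty acid branch held the largest single decreases among the 36 genes. Scd1 and Scd2 encode stearoyl-CoA desaturases, which place the first double bond in saturated fatty acids, and lie in 1 cluster on chromosome 19, with Scd4 between them (Scd1, ENSMUSG00000037071, 44394455 to 44407879; Scd2, ENSMUSG00000025203, 44293674 to 44306864; mm10). Scd1 was at 56.6, 52.6 and 53.1 CPM in expressing replicates 1 to 3 and at 26.7, 25.8 and 25.3 CPM in the libraries labelled KO. It fell by 52.1% (log2 fold change -1.06, SE 0.0665, adjusted p = 5.68e-06, edgeR), and every expressing library lay above every library labelled KO. Scd2 was at 519.7, 532 and 516 CPM against 325, 346 and 326 CPM. The groups again stood well apart, and Scd2 fell by 36.4% (-0.65, SE 0.0527, adjusted p = 2.22e-05, edgeR).

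Acaca, acetyl-CoA carboxylase 1, makes the malonyl-CoA used for chain building. It was at 53.4, 51.7 and 51.6 CPM against 32.1, 33.6 and 31.1 CPM and fell by 38.2% (log2 fold change -0.69, SE 0.0640, adjusted p = 4.8e-05, edgeR). Spread within each group was small beside the gap between them. Fasn, fatty acid synthase, was at 740.4, 540.2 and 604 CPM against 413, 409 and 382 CPM and fell by 36.1% (-0.65, SE 0.102, adjusted p = 0.001, edgeR). Expressing replicate 1 was the highest of the 6 libraries for Fasn, but the other 2 expressing libraries also lay above every library labelled KO. The Fasn log2 fold change was smaller, -0.48, without expressing replicate 1 (adjusted p = 4.64e-09, edgeR).

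Acss2 and Acly both supply cytosolic acetyl-CoA, the first from acetate and the second from citrate. Acss2 was at 9.68, 7.76 and 7.36 CPM against 4.16, 4.46 and 5.16 CPM and fell by 44.1% (log2 fold change -0.84, SE 0.137, adjusted p = 0.00122, edgeR). Acly, by far the more abundant per kilobase (95.4 ± 5.61 RPKM against 0.813 ± 0.122 RPKM for Acss2 in the expressing libraries), fell by 13.7% (-0.21, SE 0.0573, adjusted p = 0.0155, edgeR). Its libraries were at 536, 477 and 499 CPM against 433, 436 and 435 CPM, so the groups did not overlap although the change was small. Leaving out expressing replicate 3 (adjusted p = 0.0571, edgeR) or any one library labelled KO (0.0619 to 0.0667) ended the Acly call, as did scaling by library totals (0.153). Without expressing replicate 1 Acly was lower by less (-0.14, adjusted p = 0.000917, edgeR).

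The elongases and the polyunsaturated desaturases did not move as a block. Elovl1, an elongase of very long saturated chains, was the single fatty acid gene that rose, from 16.9, 15.6 and 15.7 CPM to 19.0, 22.7 and 20.6 CPM (log2 fold change 0.37, SE 0.0885, adjusted p = 0.00865, edgeR). All 3 libraries labelled KO lay above the expressing ones, as for 26.4% of tested genes. Elovl6, which lengthens palmitate, did not pass (log2 fold change -0.19, SE 0.0687, adjusted p = 0.053, edgeR), and Elovl5, an elongase of polyunsaturated chains, was at 125 ± 16.8 and 133 ± 3.77 CPM (SD, n = 3) with overlapping groups. Without expressing replicate 1, Elovl6 passed (-0.23, adjusted p = 1.81e-06, edgeR).

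Fads1 and Fads2, the delta-5 and delta-6 desaturases, lie close together on chromosome 19. Fads2 was at 56.5, 47.1 and 48.1 CPM against 42.4, 42.5 and 42.9 CPM and fell by 15.7% (adjusted p = 0.035, edgeR). Fads1 stayed between 51.4 and 58.4 CPM in all 6 libraries, with a 95% interval of its log2 fold change from -0.16 to 0.14. Acsl3, which activates fatty acids by joining them to CoA, fell by 14.2% (-0.22, SE 0.0592, adjusted p = 0.015, edgeR). Acsl3 shares 244 exon bases on the same strand with Utp14b, which fell by 0.72 on the log2 scale. Both calls, Fads2 and Acsl3, ended when expressing replicate 3 was left out (adjusted p = 0.0675 and 0.0623, edgeR), without any one library labelled KO (up to 0.107 and 0.0678) and with library totals (0.203 and 0.0841). Without expressing replicate 1 Fads2 passed with a smaller difference (-0.13, adjusted p = 0.0363, edgeR).

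**Figure D2:**
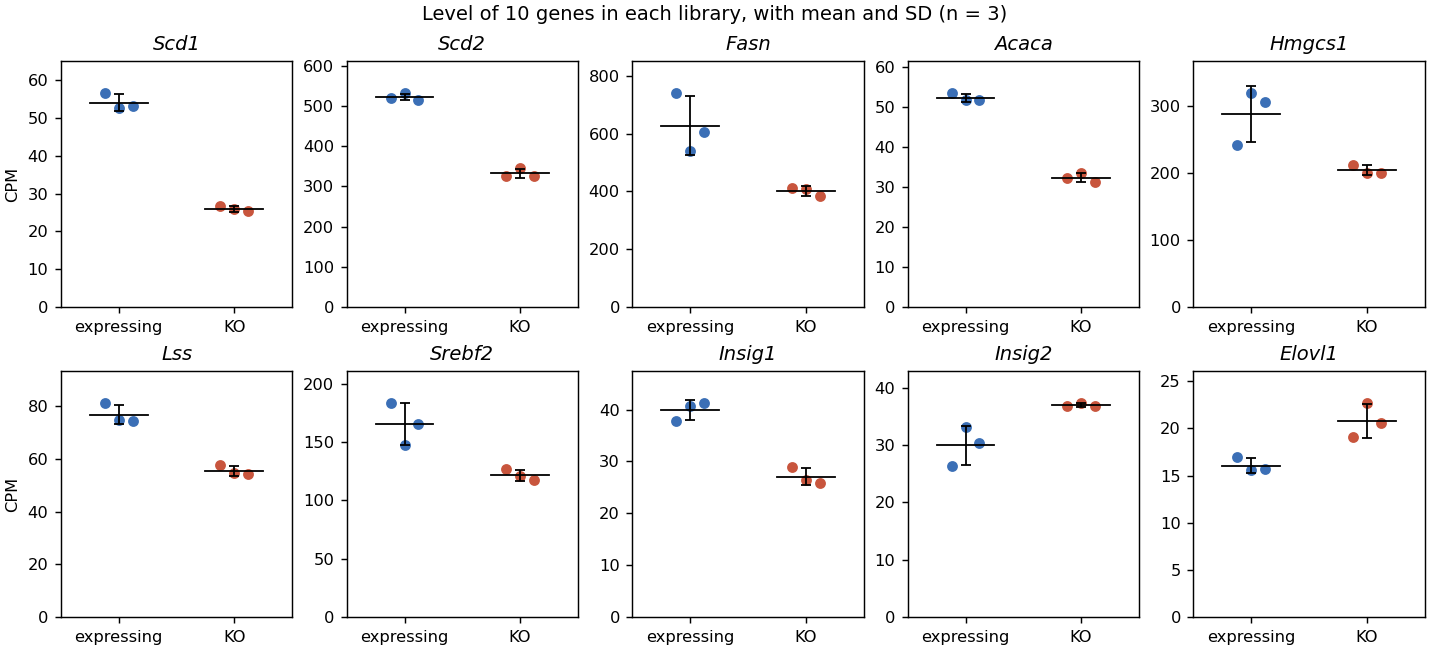
Level in CPM (y axis, from 0) of 10 genes in each of 3 expressing libraries (blue) and 3 libraries labelled KO (red), with the mean (horizontal line) and SD (bar) of each group. For Scd1, Scd2, Fasn, Acaca, Hmgcs1, Lss, Srebf2 and Insig1 every red point lies below every blue point, and for Insig2 and Elovl1 every red point lies above.

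In the first steps of the sterol branch, from acetyl-CoA to farnesyl diphosphate, 4 of 7 genes fell, against 20.8% of all tested genes. Hmgcs1 (ENSMUSG00000093930, chromosome 13, 119690379 to 119708260), which joins acetyl-CoA to acetoacetyl-CoA and whose promoter is printed above, was at 241, 319.7 and 307 CPM against 213, 201 and 199.6 CPM. It fell by 29.4% (log2 fold change -0.50, SE 0.0970, adjusted p = 0.00298, edgeR), with the lowest expressing library still above the highest library labelled KO. Pmvk and Mvd, the second kinase and the decarboxylase of the mevalonate route, fell by 23.9% (adjusted p = 0.00812, edgeR) and 29.0% (adjusted p = 0.0237, edgeR). Mvd spread widely among expressing libraries (25.8, 16.4 and 21.5 CPM), and its call ended when expressing replicate 3 or the first or the second library labelled KO was left out (adjusted p = 0.0763 to 0.0847, edgeR) and with library totals (0.0624). Without expressing replicate 1 Mvd passed with a smaller difference (-0.30, adjusted p = 0.0125, edgeR), and so did Pmvk (-0.28, 0.00161). Mvk, mevalonate kinase, did not pass (log2 fold change -0.37, SE 0.140, adjusted p = 0.0603, edgeR), although its groups did not overlap; it passed without expressing replicate 2 (-0.52, edgeR-adjusted p = 0.00596) but was at -0.17 when expressing replicate 1 was left out (0.111). Acat2, the cytosolic thiolase that starts the route, was at 46.4 ± 3.64 and 45.9 ± 0.893 CPM (SD, n = 3).

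Fdps and Idi1, the farnesyl diphosphate synthase and the isopentenyl diphosphate isomerase, were counted at very low levels beside the enzymes before and after them. Fdps was at 7.92, 5.10 and 5.99 CPM against 4.44, 3.86 and 3.49 CPM, and passed as lower (log2 fold change -0.69, SE 0.172, adjusted p = 0.0113, edgeR). The call was lost without KO replicate 3 (0.056), and the difference was smaller without expressing replicate 1 (-0.48, 0.0039). Idi1 ran from 1.31 to 2.96 CPM in the expressing libraries and from 1.44 to 2.09 CPM in those labelled KO and did not pass (-0.33, SE 0.269), but did without expressing replicate 1 (-0.54, adjusted p = 0.02, edgeR), and was at -0.04 without expressing replicate 3. Of the longest coding transcript of Fdps, 76.8% is matched at 95% identity or more by transcripts of 5 annotated pseudogenes, and Fdps also shares 1124 exon bases on the same strand with Gm43738, which was listed at 0 in all 6 libraries. Idi1 has 2 such pseudogenes over 22.6% of its transcript. How reads of these stretches were assigned was not tested, so the levels of Fdps and Idi1 are uncertain. The same holds for stretches matched by a pseudogene in Acaca (64.3%), Fdft1 (33.7%), Elovl6 (13.5%) and Insig1 (7.01%), and by other annotated genes in Acat2 (65.6%) and Scd2 (11.4%).

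All 3 genes that lead through squalene to lanosterol fell, against 20.8% of all tested genes. Fdft1, squalene synthase, was at 62.7, 54.4 and 55.7 CPM against 41.0, 42.2 and 42.1 CPM (log2 fold change -0.46, SE 0.0720, adjusted p = 0.000913, edgeR). Lss, lanosterol synthase, was at 81.1, 74.8 and 74.5 CPM against 57.5, 54.6 and 54.2 CPM (-0.47, SE 0.0635, adjusted p = 4e-04, edgeR). They fell by 27.5% and 27.8%, with no overlap of the groups. Sqle, squalene epoxidase, which introduces the first oxygen and is a control point of the route, fell by only 10.9% (-0.17, SE 0.0521, adjusted p = 0.0296, edgeR). Its call was lost under 7 of 14 alternatives, without expressing replicate 3 or any one library labelled KO among them (adjusted p = 0.0838 to 0.132, edgeR). Fdft1 shares 774 exon bases with Ctsb on the opposite strand, a gene with a log2 fold change of 0.22 (adjusted p = 0.0643, edgeR).

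Of the 8 genes between lanosterol and cholesterol, 4 fell and 0 rose (edgeR), against 20.8% and 19.2% of all tested genes. Msmo1, the C4-methyl sterol oxidase, was at 76.6, 88.2 and 86.4 CPM against 62.6, 61.7 and 64.1 CPM and fell by 25% (log2 fold change -0.42, SE 0.0688, adjusted p = 0.00129, edgeR). Nsdhl, which acts with it to remove the C4 methyl groups, was at 35.7, 35.8 and 36.4 CPM against 26.8, 29.9 and 27.9 CPM (-0.35, SE 0.0698, adjusted p = 0.00338, edgeR). In both the groups stood apart. Sc5d, a sterol desaturase, fell by 16.3% (adjusted p = 0.0254, edgeR) and Cyp51, the lanosterol demethylase, by 13.1% (adjusted p = 0.049, edgeR). The Cyp51 call was lost under 11 of 14 alternatives, leaving out any library but expressing replicate 1 among them (adjusted p = 0.117 to 0.163, edgeR), and the Sc5d call likewise without each of those 5 libraries (0.0574 to 0.111) and with library totals (0.116).

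The other 4 genes of this stretch did not pass. Hsd17b7, the ketoreductase of C4 demethylation, was at 22.5 ± 1.6 and 23.7 ± 0.525 CPM and Ebp, the sterol isomerase, at 24.0 ± 1.93 and 25.2 ± 0.806 CPM (SD, n = 3). Both had a log2 fold change of 0.07 with 95% intervals that ended at 0.25, so a rise of more than that size was outside the interval. Ebp passed as higher without expressing replicate 1 (0.17, adjusted p = 0.0337, edgeR). Tm7sf2, a sterol reductase, was close to level (log2 fold change 0.08, SE 0.116) and shares 532 exon bases on the same strand with Vps51. Dhcr7, the last reductase of one route to cholesterol, had -0.26 (SE 0.0938, adjusted p = 0.0532, edgeR) and lay lower in all 3 libraries labelled KO; it passed without expressing replicate 2 or 3 (0.0495 and 0.048) and was at -0.13 without expressing replicate 1 (0.0642). Stard4, which carries sterols between membranes, had -0.19 (SE 0.103); without expressing replicate 1 it passed as lower (-0.28, adjusted p = 2.97e-05, edgeR), and without expressing replicate 2 it was at -0.11 (0.43).

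The 5 SREBP regulators went both ways: 2 rose and 2 fell, against 19.2% and 20.8% of all tested genes. Srebf2 (ENSMUSG00000022463, chromosome 15, 82147181 to 82205379), which encodes SREBP2, was at 183, 147 and 165 CPM against 127, 121 and 117 CPM and fell by 26.5% (log2 fold change -0.44, SE 0.0809, adjusted p = 0.00218, edgeR). The Srebf2 difference was smaller without expressing replicate 1 (-0.34, adjusted p = 2.53e-07, edgeR). Srebf1, whose counts do not separate the SREBP1a and SREBP1c transcripts, was at 44.7, 31.3 and 32.5 CPM against 28.9, 30.6 and 26.0 CPM. Its groups did not overlap, but the test was not passed (-0.34, SE 0.133, adjusted p = 0.067, edgeR), and expressing replicate 1 stood well above the rest. Srebf1 passed under 5 of 14 alternatives, among them without expressing replicate 2 (-0.44, adjusted p = 0.0283, edgeR) and with the GC trend of each library removed (-0.24, 0.00861). Without expressing replicate 1 the difference was smaller and not passed (-0.14, adjusted p = 0.0863, edgeR).

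Scap, the escort of the SREBPs, rose from 48.9, 36.9 and 37.7 CPM to 51.2, 51.4 and 50.3 CPM (log2 fold change 0.31, SE 0.104, adjusted p = 0.0391, edgeR). Expressing replicate 1 was close to the libraries labelled KO, and the call was lost without any other single library (adjusted p = 0.0962 to 0.141, edgeR). Without expressing replicate 1 the rise was larger (0.48, adjusted p = 4.35e-09, edgeR).

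The paralogues Insig1 and Insig2, whose proteins retain the SCAP and SREBP complex, moved in opposite directions. Insig1, itself a known SREBP target, was at 37.7, 40.7 and 41.2 CPM against 28.9, 26.4 and 25.9 CPM and fell by 32.3% (log2 fold change -0.56, SE 0.0745, adjusted p = 0.000368, edgeR). Insig2 was at 26.3, 33.1 and 30.4 CPM against 36.8, 37.3 and 36.7 CPM and rose by 23.2% (0.30, SE 0.0879, adjusted p = 0.0222, edgeR). The Insig2 call was lost without any one library labelled KO (adjusted p = 0.0688 to 0.0753, edgeR). Per kilobase Insig1 was 1.61, 1.38 and 1.52 times Insig2 in the expressing libraries and 0.881, 0.797 and 0.790 times in those labelled KO, so their order turned in every library. The difference in this ratio gave p = 0.1 in a two-sided exact permutation test, the smallest p that 3 against 3 libraries allow (adjusted p = 0.12 over 6 ratios between members, chosen after their values were seen). The Scd2 to Scd1 ratio per kilobase, from 8.22 to 9.06 in the expressing libraries and from 10.9 to 12.0 in those labelled KO, gave the same exact permutation p. So did the ratios of Elovl1 to Elovl6, Fads2 to Fads1 and Acly to Acss2, so this p does not single out any of these pairs. Srebf2 to Srebf1 gave an exact permutation p of 0.4.

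**Figure D3:**
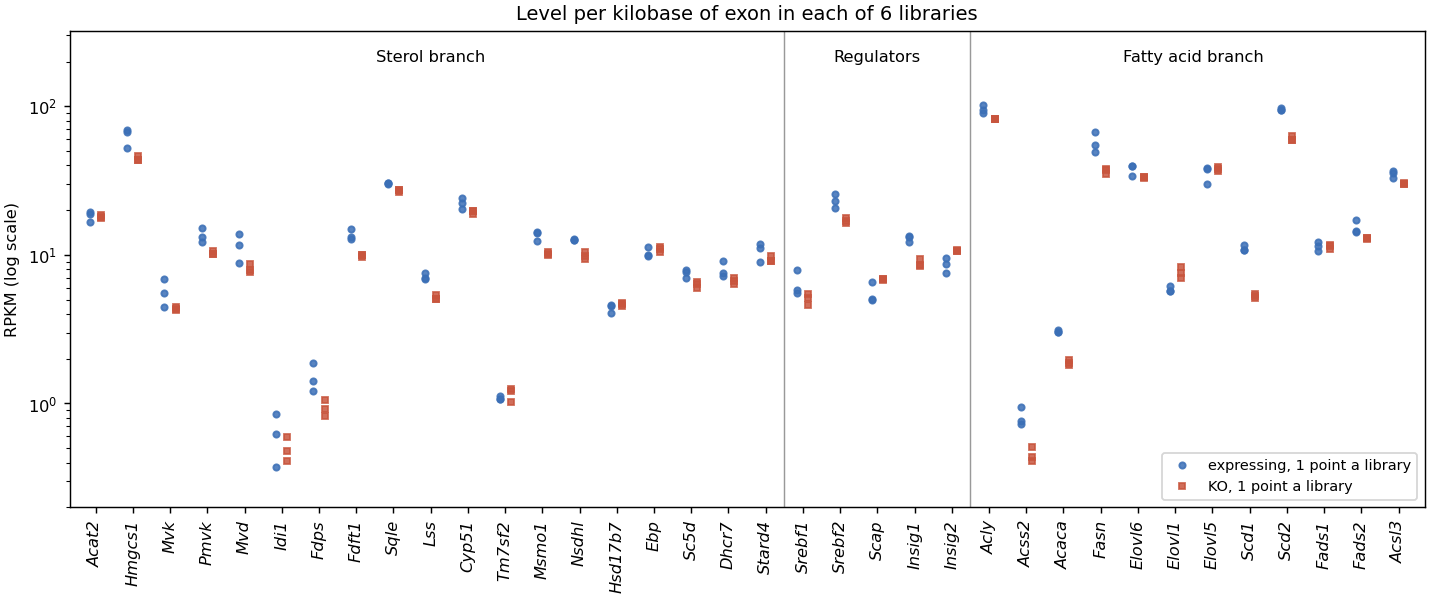
Level per kilobase of merged exon (RPKM, log scale) of each gene (x axis, in pathway order) in 3 expressing libraries (blue circles) and 3 libraries labelled KO (red squares). Scd2 and Acly are the highest and Idi1 and Acss2 the lowest in the expressing libraries, and the Insig1 and Insig2 points exchange places between the groups.

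Levels per kilobase spanned a wide range. In the expressing libraries Scd2 (95.7 ± 1.54 RPKM) and Acly (95.4 ± 5.61 RPKM) led and did not differ beyond their spread, followed by Hmgcs1 (63.0 ± 9.12 RPKM) and Fasn (57.4 ± 9.34 RPKM), which also overlapped. The lowest were Fdps (1.51 ± 0.342 RPKM), Tm7sf2 (1.09 ± 0.0316 RPKM), Acss2 (0.813 ± 0.122 RPKM) and Idi1 (0.615 ± 0.235 RPKM). In the libraries labelled KO Acly (82.3 ± 0.334 RPKM) stood above Scd2 (60.8 ± 2.22 RPKM), and Scd1 moved from rank 20 to rank 27 of 36. Merged exon length counts exons of all annotated transcripts, which lowers RPKM for genes whose annotated transcripts add much exon length, Acss2, Lss, Fdps and Tm7sf2 among them.

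The spread among expressing libraries followed GC content. Across the 36 genes, the deviation of expressing replicate 1 from its group mean (log2 CPM) correlated with the GC content of the longest transcript (r = 0.82, rho = 0.847), while r was -0.835 and -0.535 for expressing replicates 2 and 3. Deviations from a mean of 3 libraries sum to 0, so the centring sets that the other 2 together run against replicate 1. These values are across genes that share the same libraries and are not independent. In the libraries labelled KO r lay between -0.15 and 0.25. Expressing replicate 1 was the library farthest from its group's median for 30 of the 36 genes, and the coefficient of variation was larger among expressing libraries than among those labelled KO for 29. GC-rich members such as Fasn, Srebf1, Mvk, Mvd and Scap were high in that library and GC-poor members such as Hmgcs1, Idi1, Stard4 and Elovl5 were low. Without it 13 sterol genes fell and 1 rose, and 9 fatty acid genes fell and 1 rose, among them all 11 and all 8 of the decreases above; 24.7% of all tested genes were then lower. With the GC trend of each library removed 14 sterol and 9 fatty acid genes were lower, against 26.4% of all tested genes.

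**Figure D4:**
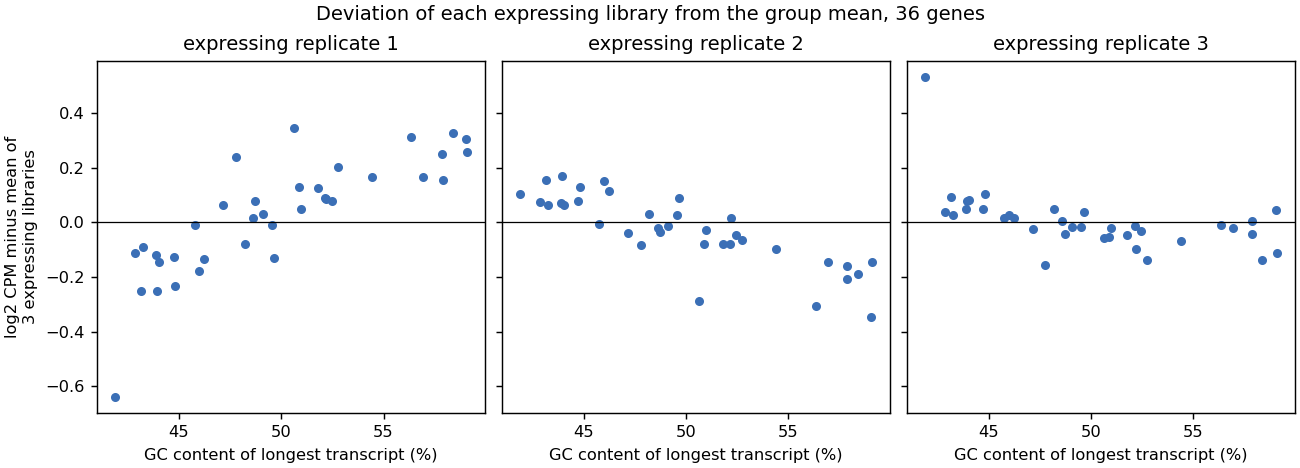
Deviation of each expressing library from the mean of the 3 (y axis, log2 CPM) against the GC content of the longest transcript (x axis, %), 1 point for each of the 36 genes. Points rise from left to right in replicate 1 (r = 0.82) and fall in replicates 2 and 3 (r = -0.835 and -0.535), whose deviations balance those of replicate 1.

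Lists of genes around the pathway are given beside the share over all tested genes, 19.2% higher and 20.8% lower. Of 15 genes for SREBP processing and sterol-dependent protein degradation, 4 rose and 1 fell, with a median log2 fold change near 0 (-0.00057). Fbxw7, a ubiquitin ligase subunit that binds nuclear SREBPs, was at 68.2 ± 3.45 and 113 ± 2.04 CPM (SD, n = 3) and rose by 0.73 on the log2 scale (SE 0.0606, edgeR-adjusted p = 2.73e-05). Pgrmc1, a haem-binding membrane protein, rose by 0.48 on the log2 scale, while Rnf145, a membrane ubiquitin ligase, fell by 0.29.

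Of 22 genes for sterol uptake, transport, storage and efflux, 4 rose and 4 fell (median -0.08), close to the shares over all genes. Abca1, which exports cholesterol, was at 29.9 ± 2.27 and 14.8 ± 0.841 CPM (SD, n = 3) and fell by 1.01 on the log2 scale (SE 0.0857, edgeR-adjusted p = 2.97e-05). Apoe, a lipoprotein component, went from 131 ± 19.6 to 69.3 ± 0.874 CPM (log2 fold change -0.91) and Vldlr, a lipoprotein receptor, from 8.36 ± 1.32 to 3.74 ± 0.566 CPM (-1.17). Mylip, a ligase that degrades lipoprotein receptors, rose by 0.71, Lipa, the lysosomal acid lipase, by 0.40, and Soat1, which esterifies cholesterol, by 0.29 on the log2 scale. Of the 25 tested of 27 further genes for fatty acid synthesis, elongation and activation, 5 rose and 4 fell (median -0.03). Hacd2 (0.44), Acsl5 (0.31) and Hacd4 (0.94) led the increases, and Acsl1 (-0.53), Acacb, the second acetyl-CoA carboxylase (-0.49), and Slc25a1, the mitochondrial citrate carrier (-0.36), the decreases, given as log2 fold changes.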

How the data were processed

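Poly(A) RNA of 6 mouse ES cell dishes was sequenced from stranded libraries (800 ng of total RNA, 12 PCR cycles, per the labels' protocols). The values deposited by the authors are raw read counts per Ensembl gene, with no scaling. The submitters' processing notes name STAR 2.5.3a, HTSeq 0.6.1p1, cutadapt 1.10 and bcl2fastq 2.20.0.422, and the build mm10; the sources used here give no settings, strand option or annotation release, so reads of overlapping genes and of near-identical copies may be split or lost. Groups came from the sample titles. Dishes may share a culture, in which case p-values cover only the spread between dishes.

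Symbols, positions, merged exon lengths and transcript GC content came from GENCODE M21 (GRCm38), which named 55141 of 55401 identifiers, and near-identical transcript stretches of at least 100 bases were found with BLAST. Counts were filtered with filterByExpr (minimum count 10, minimum total 15), scaled by TMM and tested with glmQLFit (robust) and glmQLFTest in edgeR 4.0.16 (R 4.3.3), group being the only term. Benjamini-Hochberg adjustment covered the 17778 genes that passed, with a threshold of 0.05. SE and 95% intervals come from the test statistic. The step was tested on simulated counts with the same groups (17499 genes). It recovered 78.8% of 52 genes changed 1.5-fold, 78.9% of 71 changed 2-fold and 97.1% of 68 changed 4-fold, with 9 unchanged genes called. Far fewer genes were changed there than were called in the data, and its noise held no GC trend. Changes below 1.5-fold were not simulated, so these rates need not hold for the members. Alternatives were DESeq2 1.42.0, its size factors, library totals, other filters, a replicate block, removal of the GC trend (loess, span 0.3) and leaving out each library. No 2 libraries of a group agreed within sampling noise (chi-square test of counts), so none was taken as a repeat count of another. This does not show that the dishes are independent. Each library was counted as 1 replicate. The members and lists were chosen with earlier results of these data known. All 36 members are named, and of each further list up to 3 genes with the smallest p in each direction, of which 1 is not reported here; 1 promoter motif was loosened and member ratios were chosen after values were seen.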

Additional observations from a re-analysis of the deposited data

How the results depend on the processing

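Of the 24 calls among the 36 genes, 14 were made under all 14 alternatives run: the decreases of Hmgcs1, Pmvk, Fdft1, Lss, Msmo1, Nsdhl, Srebf2, Insig1, Acss2, Acaca, Fasn, Scd1 and Scd2, and the increase of Elovl1. The other 10 were lost under at least 1, and 7 genes that had not passed did so under at least 1 (Mvk, Idi1, Ebp, Dhcr7, Stard4, Srebf1 and Elovl6). Leaving out 1 library at a time gave 7 to 13 lower and 0 to 1 higher sterol genes. Lower fatty acid genes numbered 5 to 9 and higher regulators 0 to 2. The share of all tested genes called lower moved as well, from 14.5% to 24.7%, and the share called higher from 14.1% to 26.2%. Branch medians ran from -0.33 to -0.28 (sterol) and from -0.28 to -0.23 (fatty acid). The 2 regulators called higher (Scap and Insig2) became 0 without KO replicate 1, 2 or 3 and 1 without expressing replicate 2 or 3. Library totals gave 7 lower sterol and 5 lower fatty acid genes, against 14.5% of all tested genes. The branch medians were then -0.24 and -0.14, while the median of all genes moved from -0.01 to 0.08. With the GC trend removed the sterol median was -0.30, with or without the replicate block. A sign changed only for Acat2 and Fads1, both near 0 and never called. Acat2 was at 0.0736 with library totals, 0.0040 with the GC trend removed, 0.0064 with the block as well, and between -0.0526 and 0.0260 with 1 library left out (above 0 without expressing replicate 2 or 3). Fads1 was at 0.0032 with DESeq2 size factors, 0.0791 with library totals, 0.0356 with the GC trend removed, 0.0370 with the block as well, 0.0040 by DESeq2, and between -0.0487 and 0.0589 with 1 library left out (above 0 without expressing replicate 1 or KO replicate 3). The cause of these changes was not tested.

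The labels do not say whether replicate numbers pair the libraries. Deviations of same-numbered libraries from their group means correlated at 0.018, -0.030 and 0.034 across genes. These values cannot settle pairing, since the deviation of expressing replicate 1 also followed GC content over the tested genes (r = 0.52). With the replicate block 11 sterol genes, 8 fatty acid genes and 3 regulators were lower, against 19.1% of all tested genes. Cyp51 and Sqle lost their calls and Mvk, Dhcr7 and Srebf1 passed. Depth limits Idi1 most, at 41 to 108 counts per library.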

Other observations

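Routes that branch off before squalene or that burn fatty acids went both ways. Of 12 genes of the isoprenoid branches, which lead to ubiquinone, dolichol and protein prenylation, 2 rose and 3 fell, with a median log2 fold change of -0.06; 20.8% of all tested genes were lower and 19.2% higher. All 3 decreases were prenyltransferase subunits: Rabggtb was at 179.7 ± 6.98 and 116 ± 1.25 CPM (SD, n = 3) and fell by 0.63 on the log2 scale (SE 0.0555, edgeR-adjusted p = 3.62e-05), Fntb fell by 0.49 and Fnta fell by 0.31. Pggt1b, the beta subunit of a related enzyme, rose by 0.38 and Dolk, dolichol kinase, by 0.52. Of 17 tested genes for fatty acid oxidation (20 listed), 5 rose and 5 fell (median -0.06). Cpt1c, a brain-type carnitine palmitoyltransferase isoform, was at 52.6 ± 4.22 and 101 ± 3.85 CPM (SD, n = 3) and rose by 0.94 (SE 0.0726, edgeR-adjusted p = 1.8e-05), Etfdh by 0.65 and Acadvl by 0.38, while Echs1 (-0.40), Acadm (-0.29) and Acadl (-0.32) were lower.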
